A study of Mus musculus with 4 samples.

Results

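Glutamate receptors and the scaffold proteins that hold them in the postsynaptic membrane were examined for binding of the thyroid hormone receptor TRα1 in mouse striatum. The set holds 35 of 21887 protein-coding genes of the RefSeq table for GRCm38.p6: 4 AMPA, 5 kainate, 7 NMDA, 1 delta and 7 metabotropic receptor genes, and 11 scaffold genes. They were chosen by name and function, with earlier results of these data known. A gene was counted as having a peak when the summit of a listed peak lay inside the gene or within 30 kb of its ends.

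The study sequenced 3 immunoprecipitated (IP) chromatin fractions and 1 input of striatum, and compared the fractions with the input. Per the series title, IP and input come from animals that carry Gad2Cre, a Cre driver active in GABAergic neurons, together with ThraGS, an allele of the receptor gene Thra that encodes GS-TRα1, TRα1 with a GS tag. IgG-coated magnetic beads, which hold such a tag, were used for the IP, and the input had no antibody. The number, age and sex of the animals, their hormone state and whether animals were pooled are not given in the sources used here. An IP from animals without the tag was not analysed here, so DNA held by the tag and DNA held by the beads alone cannot be told apart. The deposited result is 1 list of peaks of DNA for the series. It gives no value per fraction and no expression level, so there is no replicate error and the tissue label was not checked against marker genes.

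Glutamate is the main excitatory transmitter of the brain, and the projection neurons of the striatum receive it from cortex and thalamus. AMPA, kainate and NMDA receptors are ion channels assembled from several subunits, whereas metabotropic receptors signal through G proteins. Scaffold proteins of the Dlg, Shank and Homer families link the receptors to each other and to the actin skeleton beneath the membrane. TRα1 is a nuclear receptor that binds DNA with or without hormone, typically at repeats of the half-site AGGTCA, often as a pair with a retinoid X receptor.

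The sequences below are shown because a listed peak lies near a start site of Dlg4, or reaches into the bases before a start site or gene end near Dlg2 and Grin3b. They are RefSeq promoter sequences of GRCm38.p6, written 5′ to 3′ and restricted to bases outside annotated genes. In the first, the 250 bases before the start of Dlg4 on the plus strand at chr11:70016953-70017202, capitals mark a half-site read on the opposite strand, and the peak summit lies 2224 bp before the start. In the others, capitals mark the bases inside a listed peak. These are the 192 bases between Tmem126b and the lower-coordinate end of Dlg2, on the plus strand at chr7:90475996-90476187, the 250 bases before the start of Tmem126a on the minus strand at chr7:90457204-90457453, and 209 bases before the start of Abca7 on the plus strand at chr10:79996244-79996452. Tmem126a lies near Dlg2 and Abca7 near Grin3b.
Dlg4: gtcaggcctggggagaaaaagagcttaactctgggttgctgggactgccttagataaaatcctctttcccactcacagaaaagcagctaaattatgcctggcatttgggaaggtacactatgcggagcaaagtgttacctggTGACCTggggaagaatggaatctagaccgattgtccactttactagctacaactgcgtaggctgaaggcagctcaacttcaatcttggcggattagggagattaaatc
Dlg2: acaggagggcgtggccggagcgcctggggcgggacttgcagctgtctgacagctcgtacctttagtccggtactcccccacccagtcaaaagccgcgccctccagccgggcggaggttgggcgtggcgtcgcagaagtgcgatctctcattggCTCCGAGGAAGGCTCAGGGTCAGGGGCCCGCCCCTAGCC
Tmem126a: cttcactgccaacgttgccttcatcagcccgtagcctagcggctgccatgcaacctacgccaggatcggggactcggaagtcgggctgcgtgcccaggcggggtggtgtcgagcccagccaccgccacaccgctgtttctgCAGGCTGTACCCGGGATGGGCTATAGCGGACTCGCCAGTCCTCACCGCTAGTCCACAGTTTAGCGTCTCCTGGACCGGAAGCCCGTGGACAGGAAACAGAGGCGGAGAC
Abca7: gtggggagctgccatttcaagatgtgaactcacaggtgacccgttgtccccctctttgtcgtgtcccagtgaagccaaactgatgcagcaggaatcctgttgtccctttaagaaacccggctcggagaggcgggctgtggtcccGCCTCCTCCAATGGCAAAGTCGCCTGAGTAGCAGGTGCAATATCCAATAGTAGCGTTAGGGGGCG

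The half-site was searched as the letters AGGTCA on both strands of the 250 bases before each tabulated start. It was found in 4 of the 37 promoters of the 24 members in the table, those of Dlg4, Grin2c, Homer1 and Homer3, and in 14.0% of all 32851 promoters. The letters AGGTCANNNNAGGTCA, a direct repeat with a gap of 4 that contains the half-site, were found in 0 member promoters and in 0.0152% of all promoters. Of the genes with the half-site, Dlg4, Homer1 and Homer3 had a listed peak in their windows and Grin2c had none. Over all members, 26 of 35 (74.3%) had a peak. The summit nearest a tabulated start lay 2224 bp from it for Dlg4, 13642 bp for Homer3 and 78152 bp for Homer1. The Dlg4 half-site starts 108 bases before the start site and lies outside the peak, which covers chr11:70014884-70015110. A match of letters describes the window and does not show binding.

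Of the 35 genes, 26 (74.3%) had at least 1 summit in the gene or within 30 kb, against 32.4% of all protein-coding genes. The members are long, with a median of 184 kb and a range of 6.79 to 1973 kb, against a median of 17.2 kb for all protein-coding genes. At the share seen in other coding genes from 20% shorter to 25% longer than each member, 18.4 of the 35 members (52.4%) would have a peak. The 9 members without a listed peak were Gria4, Grin2c, Grin2d, Grin3a, Grm4, Grm6, Dlg1, Dlg3 and Homer2. A single summit was found at 9 members, 2 summits at 4 members and 3 or more at 13 members. No test was made, because there is 1 list and the gene set was chosen with results of these data known.

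By group, peaks were listed at 3 of 4 AMPA, 5 of 5 kainate, 4 of 7 NMDA, 1 of 1 delta, 5 of 7 metabotropic and 8 of 11 scaffold genes. The shares at coding genes of similar length were 57.9% for AMPA, 59.9% for kainate, 44.9% for NMDA, 73.1% for delta, 56.5% for metabotropic and 47.4% for scaffold genes. The receptors together had peaks at 18 of 24 genes, against 54.7% at similar length. With 1 to 11 genes a group, the groups differ by 1 to 3 genes without a peak, except kainate and delta, where every gene had one.

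**Figure D1:**
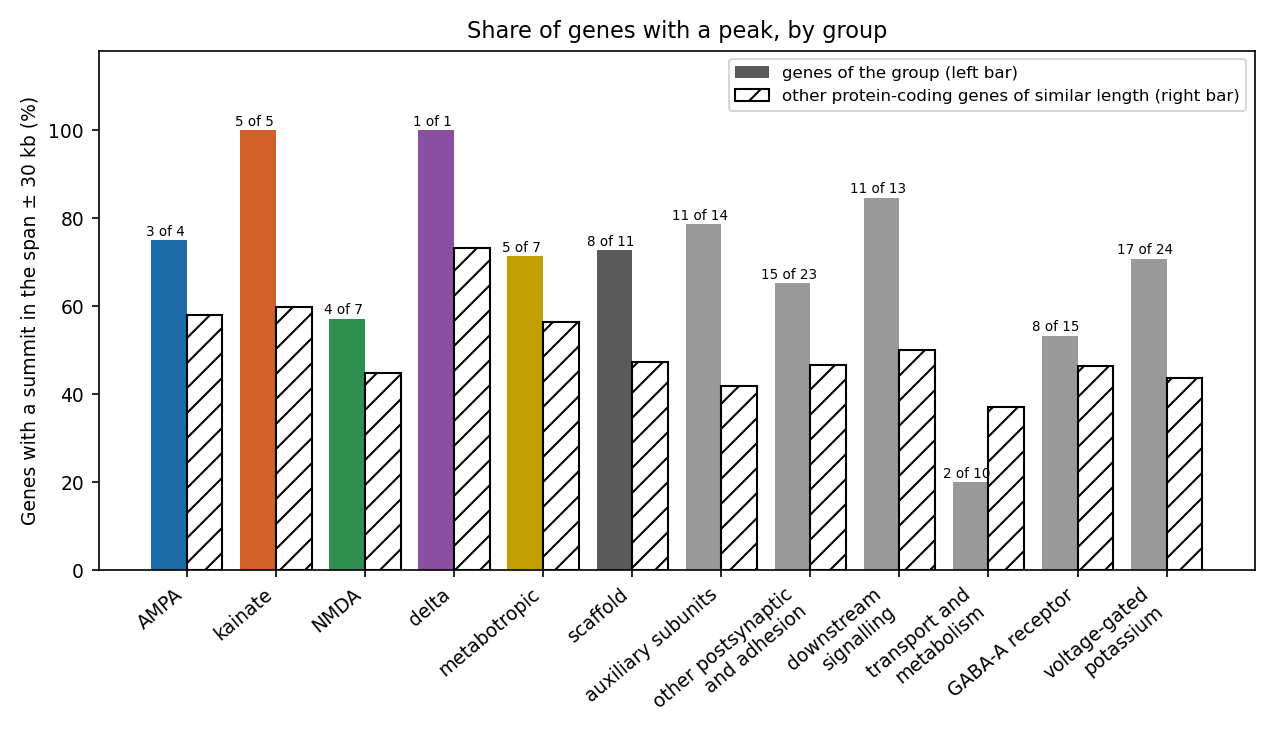
Share of genes with a summit in the gene or within 30 kb (percent, y axis) for each gene group (x axis), with the number of genes above each bar. The left bar of each pair is the group and the right bar is the share over other coding genes of similar length. All 5 kainate genes had a peak, while only 2 of 10 genes of glutamate transport and metabolism did.

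The count depended on where a peak was allowed to lie. Inside the gene span itself, 19 of 35 members held a summit, against 13.7% of all coding genes and 14.2 members at the share of similar length. When each summit was assigned only to its nearest coding gene within 30 kb, 20 members kept a peak, against 18.7% of coding genes and 15.8 members at similar length. With −log10 q of at least 10, 20 members kept a peak, against 20.4% of coding genes and 12.7 at similar length. The 6 members that had only weaker peaks were Grik1, Grik4, Grin1, Grin3b, Homer1 and Shank3.

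Members near the 30 kb limit show how the rule sorts them. Just inside it, the outermost Grm2 summit lay 29.6 kb, the only Grin1 summit 28.1 kb and the only Grik4 summit 26.2 kb from the gene. Just outside it, the nearest summit to Dlg1 lay 32.8 kb away with a fold of 5.34, that of Grm4 37.3 kb away with a fold of 7.85 and that of Gria4 41.3 kb away with a fold of 9.45. Of the 9 members without a peak, 6 had one between 30 and 100 kb.

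The members' windows held 80 summits, of which 58 (72.5%) lay inside a member gene. Over all coding genes, 40.9% of the 11161 pairs of a gene and a summit within 30 kb had the summit inside. Summits inside members were far from gene ends, at a median of 116 kb from the nearer end, against 15.8 kb for all coding genes. Only 7 of the 58 (12.1%) lay within 5 kb of an end, against 32.5% for all coding genes. These 7 were 1 each in Gria2, Grin2a, Grin2b, Grm5, Dlg2, Shank1 and Baiap2. Distances of this kind grow with gene length, and the members are long genes.

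**Figure D2:**
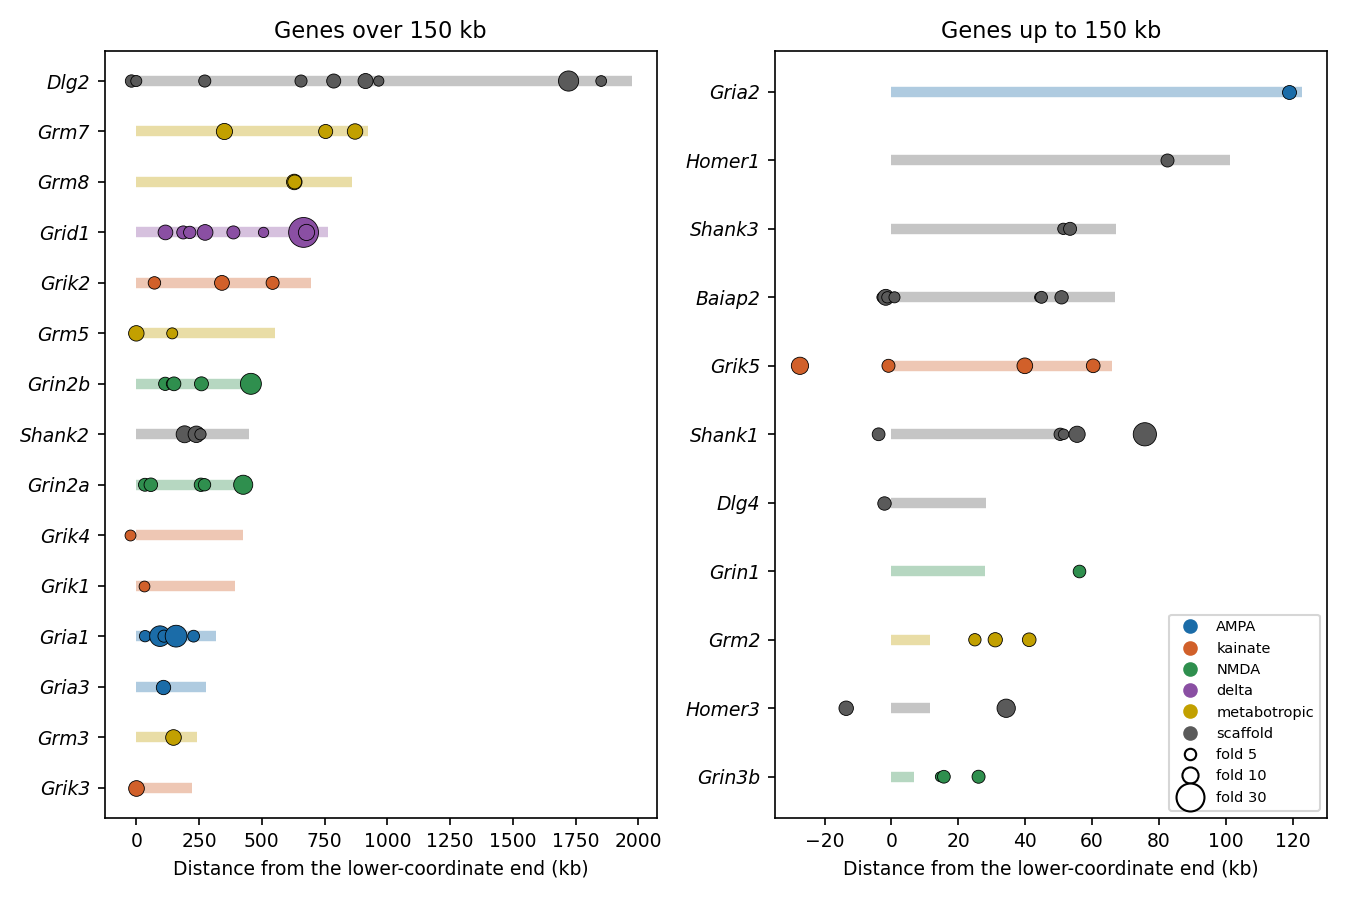
Distance of each summit from the lower-coordinate end of the gene (x axes, kb) for the 26 members with a peak (y axes), with long genes in the left panel; bars are gene spans and larger points have higher folds. Inside genes, 58 summits spread over the whole length, and the 22 outside summits lie 114 bp to 29.6 kb from the gene.

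The 22 summits outside members were often closer to another gene. Of these, 12 lay inside another coding gene, 5 were nearer to another coding gene and 5 had the member as nearest gene. For Grik4, Grin1, Grin3b, Grm2, Dlg4 and Homer3, every listed summit had another coding gene nearer. Which gene a peak acts on was not measured. Start sites were tabulated for 24 members, and 5 of them (20.8%) had a summit within 2.5 kb of a start, against 8.03% of 17492 coding genes with a tabulated start. The 5 were Grik3, Grik5, Dlg4, Baiap2 and Gria2, at 551, 2157, 2224, 2252 and 2309 bp. Within 1 kb only Grik3 remained, which is 4.17% of the members, against 6.55% of coding genes. Only tabulated starts count here. Summits of Dlg2 and Baiap2 lay 96 and 924 bp inside the 5′ end of the gene, where no start of these genes was tabulated. The start of the neighbour Tmem126b is tabulated beside that end of Dlg2.

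Peak strength at the members was close to that of the list as a whole. The authors' pileup is the height of stacked fragments at the summit, and their fold enrichment is that pileup over the local background with 1 added to both. Across the 80 member summits the median fold was 6.79, against 6.91 over all 7484 peaks, and the median pileup was 19.2, against 21.6. Pileups lie on steps of 0.939, so they convert to fragments: the member summits rested on 12 to 105 fragments (median 20.5), against 10 to 305 (median 23) in the list. Among the member summits 14 (17.5%) had a fold of 10 or more, against 23.9% of all peaks. The strongest peak per member with a peak had a median pileup of 28.2, against 24.4 over coding genes with a peak and 26.8 at similar length. Intervals given below are exact Poisson 95% intervals, of fragment counts at single summits and of summit counts for densities per Mb. They cover counting error only, since fragments copied by PCR are not independent molecules and summits can lie in clusters.

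**Figure D3:**
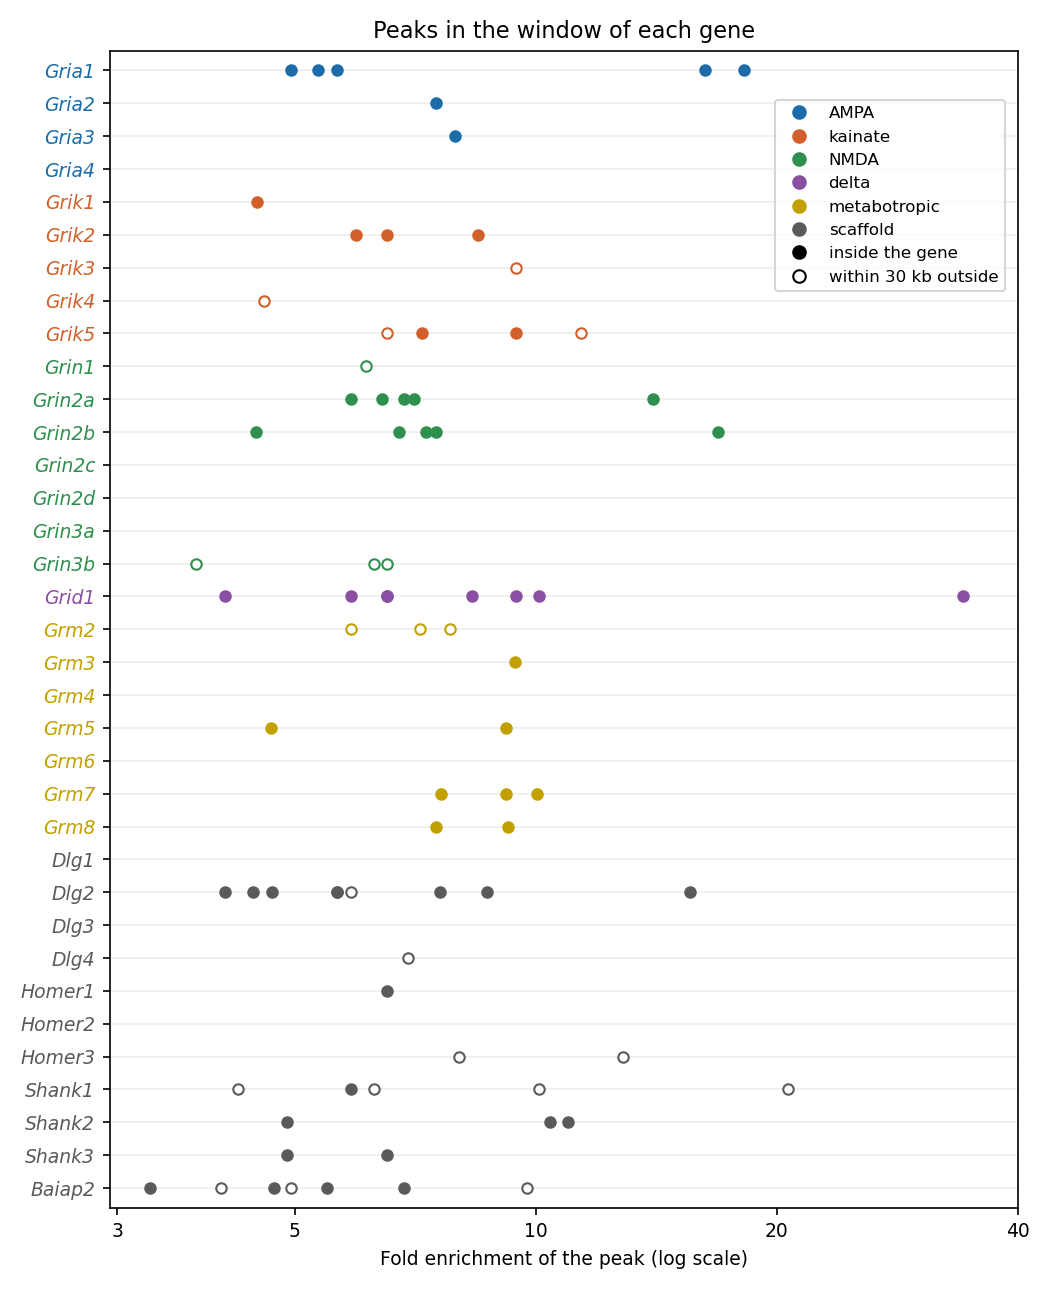
Fold enrichment of each peak (x axis, log scale) in the window of each member (y axis), filled inside the gene and open within 30 kb outside. Grid1 and Shank1 have the peaks above a fold of 20, and the 9 genes without points had no listed peak.

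Among the AMPA receptor genes, which encode the subunits of the main fast excitatory channels, Gria1 stood out in number with 5 summits, while Gria2 and Gria3 had 1 each and Gria4 none. All 7 summits lay inside the genes. Gria1 encodes GluA1 and spans 57011571 to 57330244 on chromosome 11. Its folds in genomic order were 4.95, 16.3, 5.65, 18.2 and 5.34. The fourth peak, at chr11:57169938-57170411, had a pileup of 51.7, or 55 fragments (interval 41.4 to 71.6), and lay 49.8% along the gene, 159 kb from its nearer end. The second held 49 fragments (36.3 to 64.8), so these peaks overlap in their intervals, and both exceed the others, whose highest interval ends at 30.9 fragments. Other coding genes of the length of Gria1 had a median of 1 summit and an upper quartile of 2.

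Gria2 encodes GluA2, the subunit whose RNA editing keeps calcium out of the channel. Its single summit had a fold of 7.50 with 22 fragments (13.8 to 33.3). It lay inside the gene on chromosome 3, 3.01% of the way from the 5′ end and 2309 bp past the nearest tabulated start. Gria3, which encodes GluA3, had 1 summit of fold 7.93 with 25 fragments (16.2 to 36.9), 108 kb inside the gene on chromosome X. Peaks were sparse on that chromosome: 7.87% of its 966 coding genes had one, and so did 5 of its 22 genes of similar length to Gria3. Gria4, which encodes GluA4, had no listed peak, while 64.1% of coding genes of its length did.

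All 5 kainate receptor genes, whose channels act on both sides of the synapse, had a peak, but only Grik1, Grik2 and Grik5 had one inside the gene. Grik2 encodes GluK2 and had 3 summits inside, of folds 5.97, 8.47 and 6.52, between 72.4 and 341 kb from its nearer end. Grik5, which encodes the high-affinity subunit GluK5, had 4 summits over a gene of only 65.8 kb. Those described here had folds of 6.52 at 874 bp outside the gene, 9.45 inside it and 7.22 at 2157 bp past the start.

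The Grik3 summit was the closest of the member summits to a tabulated start of its own member gene. Summits in the windows of Grin3b and Dlg2 lay nearer to tabulated starts of the neighbours Abca7, Tmem126a and Tmem126b. Grik3 encodes GluK3, and its peak at chr4:125490060-125490277 had a fold of 9.45 with 28 fragments (18.6 to 40.5). The summit lay 114 bp outside the gene and 551 bp before the nearest tabulated start. Grik1, which encodes GluK1, had 1 summit of fold 4.48 with 17 fragments (9.90 to 27.2) on a raised local background of 2.78. That summit also lay in the non-coding genes 4930590A17Rik and LOC115486002. The only Grik4 summit, of fold 4.57 with 13 fragments (6.92 to 22.2), lay 26.2 kb outside the gene, which encodes GluK4, and was nearer to Tbcel.

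Of the NMDA receptor genes, which encode channels that need both glutamate and depolarisation to open, Grin2a and Grin2b had 5 summits each, all inside the gene. Grin2c, Grin2d and Grin3a had no listed peak, and Grin1 and Grin3b had peaks only outside the gene. Grin2a and Grin2b encode GluN2A and GluN2B, the glutamate-binding subunits that dominate in forebrain. Both genes had their highest fold within 5 kb of the upper-coordinate end. In Grin2b this was the peak at chr6:136169520-136169880, 3.91 kb from the end, with a fold of 16.9 and 89 fragments (71.5 to 110). Its other summits had folds of 4.48 to 7.50 and at most 42 fragments (30.3 to 56.8). In Grin2a it was the peak at chr16:9993651-9994007, 2.23 kb from the end, with a fold of 14.0 and 42 fragments (30.3 to 56.8).

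Grin2a also shows how the local background sets the fold. Its second summit had 44 fragments (32.0 to 59.1), about as many as the peak near the end, but a background of 5.0 against 1.89, and its fold was 7.05. Backgrounds of 3.0 to 5.0 also lay under 4 of the 5 Grin2b summits. A background of at least 2.9 was found at 16 of the 80 member summits (20%), against 23.9% of all peaks. Neighbouring Grin2b summits of folds 4.48 and 7.29 lay in the non-coding gene Gm14330. Coding genes of similar length had a median of 1 summit for both genes, with upper quartiles of 2 for Grin2a and 3 for Grin2b.

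Grin1 encodes GluN1, the subunit that every NMDA receptor needs. Its single summit had a fold of 6.14 with 18 fragments (10.7 to 28.4) and lay 28.1 kb outside the gene, inside Man1b1. Grin3b, which encodes the glycine-binding subunit GluN3B, had 3 summits 7.84 to 19.3 kb outside the gene. Each held 19 fragments (11.4 to 29.7), and their folds were 3.77 over a background of 4.0, 6.28 and 6.52. The first pair was nearer to Tmem259, and the third lay inside Abca7, whose sequence before the start is shown above. The nearest summits to Grin2c, Grin2d and Grin3a were 99.5, 124 and 735 kb away.

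The delta receptor gene Grid1 held the strongest peak of the set. Grid1 encodes GluD1, a synapse organiser that binds cerebellins, and it had 8 summits, all inside its 763 kb on chromosome 14. The peak at chr14:35486087-35486737 had a fold of 34.2, a pileup of 98.6 and 105 fragments (85.9 to 127), with −log10 q of 123. It ranked 30 by fold among the 7484 peaks and lay 97.1 kb from the nearer end, 87.3% along the gene. A second peak of fold 10.1 lay 11695 bp further. The other 6 had folds of 4.09 to 9.45. One of them held 61 fragments (46.7 to 78.4) over a background of 6.0, the highest background among the member summits, and so had a fold of only 8.33. The 78 other coding genes of similar length had a median of 1 summit and an upper quartile of 4.

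**Figure D4:**
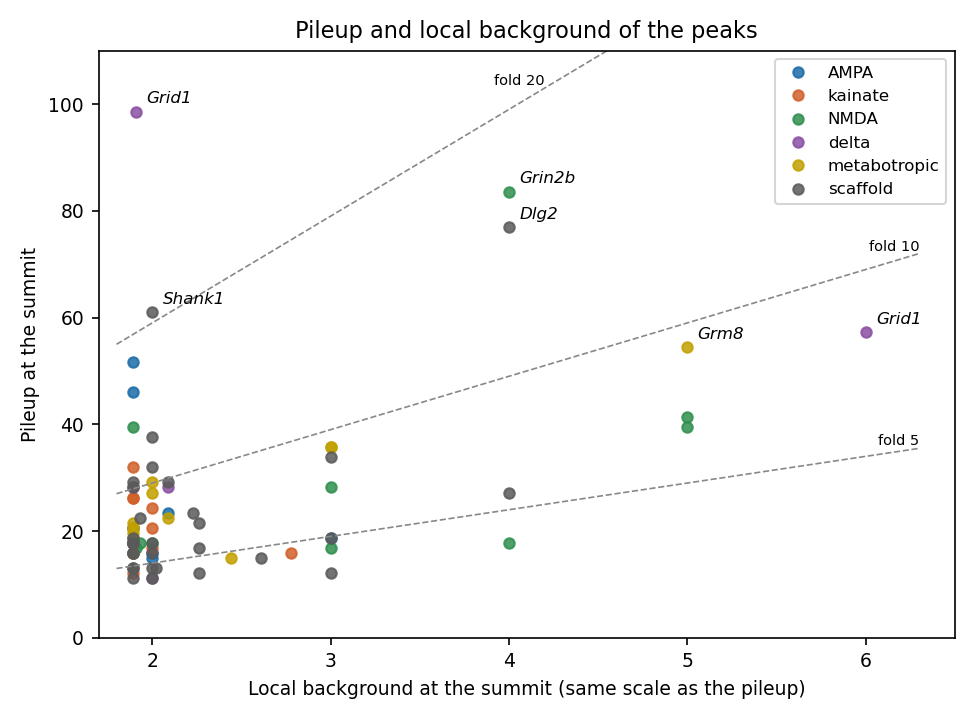
Pileup at the summit (y axis) against the local background at the summit (x axis, same scale) for the 80 member summits, coloured by gene group, with lines of equal fold. The Grid1 peak of fold 34.2 has a background of 1.91, while the Grid1 peak with a background of 6.0 has a fold of 8.33.

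Of the metabotropic receptor genes, Grm7 had 3 summits and Grm5 and Grm8 2 each inside the gene, Grm3 had 1, and Grm2 had peaks only outside. Grm4 and Grm6 had none. Inside the genes this group had 2.97 summits per Mb, with a counting interval of 1.28 to 5.86, against 4.31 per Mb over all coding genes merged. Grm5 encodes mGlu5, a Gq-coupled receptor abundant in striatal projection neurons. One of its summits lay 242 bp inside the lower-coordinate end, at chr7:87584081-87584390, with a fold of 9.17 and 38 fragments (26.9 to 52.2), and the other had a fold of 4.66. That end is not assigned as a start here, since the promoter table holds no entry for Grm5.

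Grm3, Grm7 and Grm8 encode receptors coupled to Gi, which lowers cyclic AMP. Grm7 summits had folds of 10.04, 7.62 and 9.17 at 38.1%, 81.8% and 94.5% of the way from the 5′ end. The Grm8 summits lay only 1636 bp apart, 231 and 229 kb from the nearer end. One held 58 fragments (44 to 75) over a background of 5.0 and the other 22 (13.8 to 33.3) over 1.89, with folds of 9.24 and 7.50. Grm3 had 1 summit of fold 9.41 with 29 fragments (19.4 to 41.6). The Grm2 summits, of folds 5.87, 7.82 and 7.17, all lay inside Tex264, a neighbour that encodes a receptor for autophagy of the endoplasmic reticulum.

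Among the scaffold genes, Dlg2 had 9 summits, Baiap2 7, Shank1 5, Shank2 3, Shank3 and Homer3 2 each, and Homer1 and Dlg4 1 each. Dlg1, Dlg3 and Homer2 had no listed peak. Dlg2 encodes PSD-93, a membrane-associated guanylate kinase that binds NMDA receptors, and is the longest member at 1973 kb. Its strongest peak, at chr7:92197720-92198137, had a fold of 15.6 with 82 fragments (65.2 to 102) and lay 87.3% of the way from the 5′ end. The next held 36 fragments (25.2 to 49.8). All 9 other coding genes of similar length also had peaks, with a median of 4 summits and an upper quartile of 5.

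The lower-coordinate end of Dlg2, its 5′ end, lies beside Tmem126b and Tmem126a, which encode mitochondrial proteins. One Dlg2 summit, of fold 4.69 with 14 fragments (7.65 to 23.5), lay 96 bp inside that end, and its peak reaches into the bases between Dlg2 and Tmem126b shown above. Another, of fold 5.87 with 17 fragments (9.90 to 27.2), lay 65 bp from Tmem126a and 18.9 kb from Dlg2. Dlg4 encodes PSD-95, the most abundant scaffold of the excitatory synapse. Its summit, of fold 6.93 with 23 fragments (14.6 to 34.5), lay 2224 bp before the start and inside Acadvl, which encodes a mitochondrial fatty acid dehydrogenase. Dlg1 encodes SAP97 and had its nearest summit 32.8 kb away. Dlg3, which encodes SAP102 on chromosome X, had its nearest 299 kb away, and 11 of the 88 X-linked genes of its length had a peak.

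Shank proteins tie the receptor complexes to Homer and to actin. Near Shank1 most summits lay inside neighbouring genes, and 1 of 5 lay inside Shank1, 681 bp from its upper-coordinate end, with a fold of 5.87. The strongest, at chr7:44384586-44384913, had a fold of 20.7 with 65 fragments (50.2 to 82.8), ranked 243 in the list and lay 24.6 kb beyond Shank1, inside Syt3 and 1700008O03Rik. Summits of folds 4.25 and 10.1 also lay in 1700008O03Rik, and one of fold 6.28 lay in Clec11a. Shank2 had 3 summits inside, of folds 10.98, 10.42 and 4.90. Shank3 had folds of 4.90 and 6.52 at places 2004 bp apart inside the gene.

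Baiap2 encodes IRSp53, which joins Shank and PSD-95 to the actin skeleton and bends membrane. It had 7 summits over a gene of 66.9 kb, where other coding genes of similar length had a median of 0 and an upper quartile of 1. Their median fold was 4.95, against 6.91 over all peaks. The highest fold was 9.75 with 31 fragments (21.1 to 44.0), and the lowest, 3.30 with 13 fragments (6.92 to 22.2), was the lowest of all member summits. Of them, 3 lay 1198 to 2809 bp outside the lower-coordinate end, the 5′ end, and 1 lay 924 bp inside it. All 4 lay in the non-coding gene Gm11767. A pair inside the gene lay 675 bp apart.

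Homer proteins bind group I metabotropic receptors and Shank. Homer1 had 1 summit of fold 6.52 with 19 fragments (11.4 to 29.7), 81.3% of the way from the 5′ end. Both Homer3 summits lay outside the gene, one of fold 8.03 nearer to Sugp2 and one of fold 12.9 with 40 fragments (28.6 to 54.5) inside Gdf1 and Cers1. Homer2 had its nearest summit 66.5 kb away.

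Members over 300 kb had the highest mean number of summits, and those of 100 to 300 kb the lowest, whereas in other coding genes the mean increased from each length class to the next. Among members over 300 kb, 12 of 13 had a peak, with a mean of 3.62 summits, against 67.6% and a mean of 1.95 for other coding genes of that length. Between 100 and 300 kb it was 5 of 8 with a mean of 0.625, against 48.8% and 0.888. Between 25 and 100 kb it was 6 of 9 with a mean of 2.22, against 36.3% and 0.535, and there Baiap2, Shank1 and Grik5 held most of the summits. At 25 kb or less it was 3 of 5 with a mean of 1.60, against 26.7% and 0.381, and all of these summits lay outside the members. Per Mb of gene, members had 5.45 summits (counting interval 4.14 to 7.05), against 4.31 over all coding genes merged.

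**Figure D5:**
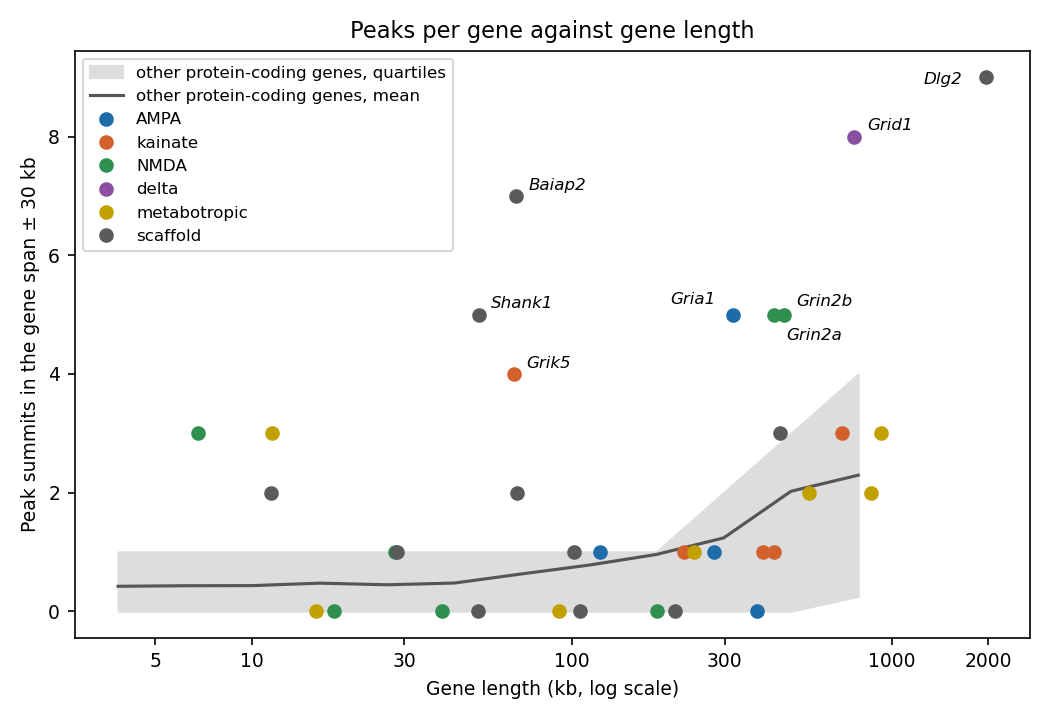
Number of summits in the gene or within 30 kb (y axis) against gene length (x axis, log scale in kb) for each member, with the mean for other coding genes by length as a line and their quartiles as a grey band. Baiap2 with 7 summits, Shank1 with 5 and Grid1 with 8 lie above the line, and the members without a peak lie at 0.

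Inside the genes, the density was 6.38 summits per Mb for AMPA (counting interval 2.56 to 13.1), 3.32 for kainate (1.22 to 7.22), 8.58 for NMDA (4.12 to 15.8) and 10.5 for delta (4.52 to 20.6). It was 6.10 for scaffold genes (3.67 to 9.53). The intervals of all groups overlap, but overlap is not a test of a difference between groups, and none was made. The intervals take summits as independent, although the NMDA summits inside genes all lay in Grin2a and Grin2b. No order among the groups is given here.

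Other genes of the glutamate synapse give the setting. Auxiliary subunits, which steer and gate the receptors, had a peak at 11 of 14 genes (78.6%), against 41.8% at similar length, led by Gsg1l with a fold of 21.8 and Cacng4 with 20.8. Genes of signalling downstream of the receptors had a peak at 11 of 13 (84.6%, against 50.1%), led by Ppp3ca, a calcineurin subunit, with a fold of 22.5 and Itpr1, a calcium release channel, with 12.7. Other postsynaptic and adhesion genes had a peak at 15 of 23 (65.2%, against 46.7%), led by Nrxn2 with 19.1 and Dlgap2 with 16.6. Glutamate transport and metabolism was low, with 2 of 10 genes (20%, against 37.0%). The vesicular transporter genes Slc17a6, Slc17a7 and Slc17a8 and the uptake transporter genes Slc1a1, Slc1a2 and Slc1a3 had no listed peak.

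As like groups, GABA-A receptor genes had a peak at 8 of 15 (53.3%, against 46.4%) and voltage-gated potassium channel genes at 17 of 24 (70.8%, against 43.6%). The highest fold in a potassium channel window was 35.4 at Kcnq3, close to the 34.2 of Grid1. For glutamate receptors and scaffolds the share was 74.3%, against 52.4% at similar length. Median gene length was 184 kb for these, 46.9 kb for potassium channel genes and 91.6 kb for GABA-A receptor genes. The shares are therefore not ranked here.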

How the data were processed

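Chromatin of mouse striatum was sequenced as 3 IP fractions and 1 input on the Ion Proton system, per the labels' protocols. The submitters' processing notes name Bowtie2 2.3.4.2, MACS2 2.1.1.20160309.0 and GRCm38 (mm10), with no settings. The sources used here do not give whether fractions were pooled for peak calling. The authors deposited for each peak its position, the pileup signal at the summit, the fold enrichment (a linear ratio) and −log10 of the p-value and q-value, per the file headers. These values are the authors' own and were compared only within the list. Peak names are numbered to 7653, and 7484 peaks were analysed, which leaves 169 numbers not analysed here. Library read totals did not enter the calculations, so depth is given per summit.

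Background was recovered as (pileup + 1) / fold − 1, and fragments as pileup over a step of 0.939, with a largest residual of 0.00504. Genes and promoters came from RefSeq tables of GRCm38.p6, and all list symbols matched. No genome sequence or exon table was used here, so peaks are not split into exon and intron. Strand and starts were known for 24 of 35 members. Coordinates count from 1. For each member, other coding genes from 20% shorter to 25% longer gave the comparison share, members left out. Genes whose windows overlap share summits in the counts over all coding genes.

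The members and lists were chosen with earlier results of these data known. All members are named, of each other list up to 4 genes with the highest fold, and of other genes only those nearest a described summit; the transporter genes without a peak were named after their values were seen. Some genes under this rule are not reported here. Counting was checked on simulated peaks. Python 3.11.15, numpy 2.4.6, pandas 2.3.3, scipy 1.17.1 and matplotlib 3.10.9 were used. Alternatives were other windows, stricter peak thresholds, assignment to the nearest gene and other length matches.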

Additional observations from a re-analysis of the deposited data

How the results depend on the processing

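Of 83 comparisons with an alternative, 66 stayed within 1.5 times or the spread of the value given and 17 moved. Limited to 30 kb around the gene ends, 17 members had a peak in place of 26. This compares with 30.1% of coding genes and 12.4 members at similar length. That limit left 37 summits in place of 80. The counts were 1 for AMPA, 0 for delta, 3 for kainate and 2 for metabotropic genes. The summits came to 40 at −log10 q of at least 10 and 38 with a fold above the median. Kainate genes with a peak came to 3 under both of these thresholds and inside the gene span. NMDA genes came to 2 under both thresholds, inside the gene span, within 5 kb and by nearest gene. With a fold above the median, 12.1 members were expected at similar length in place of 18.4. The count was 20, against 19.5% of coding genes. Within 100 kb, 32 members had a peak, against 54.0% of coding genes and 23.1 members expected at similar length.

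No paired analysis was possible because the list gives no value per fraction. For the same reason no fraction could be left out in turn. Each summit of a member rests on 12 to 105 fragments, which sets the width of its counting interval. A gene without a listed peak is not shown to be unbound.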
